A study of Mus musculus with 9 samples.

Results

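The expression of 8 matricellular genes, out of 15779 genes in the deposited tables, was followed through 9 adult mouse heart libraries. They were Thbs1, Thbs2, Thbs3 and Thbs4, which encode thrombospondins, Postn (periostin), Cilp (cartilage intermediate layer protein), Tnc (tenascin C) and Sparc (osteonectin), and each was found by its symbol in all 3 tables. All 8 passed the filter on low values, a mean of at least 1 over the 6 libraries of a comparison. Thbs4 and Cilp were chosen by their measured values in these libraries, because both stayed above wild type after treatment, so their values are given as a description with no test. The other 6 genes came in with the group and were tested. All hearts were from C57BL/6J mice, in 3 groups of 3: wild-type mice given saline, mice homozygous for the premature stop codon R946X in Mybpc3 given saline, and mice of the same mutant genotype given exABE8e at the dose called high. Mybpc3 encodes cardiac myosin-binding protein C of the sarcomere. The design text describes adenine base editors built on SpRY, delivered with AAV9 so that they are expressed in cardiomyocytes, to correct the codon. The labels gave 20 to 30 mg of frozen heart per sample and did not give sex, an age beyond adult, the dose in numbers or the part of the heart. They number the replicates without naming separate animals, so p-values measure only the spread between these samples, which may in part be technical. A numbered heart below therefore means a library.

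Matricellular proteins are secreted into the extracellular matrix, where they act on cells and on growth factors more than as scaffolding. In the heart most are made at low levels in the healthy adult and at higher levels by fibroblasts and stressed cardiomyocytes after injury or overload. Thrombospondins bind the receptors CD47, CD36 and integrins, thrombospondin 1 can activate latent TGF-beta, and inside the cell thrombospondin 4 can bind the endoplasmic reticulum (ER) stress sensor ATF6.

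The promoters shown first are those of Cilp, Postn and Tnc, which share the letters TATATAA, and that of Thbs4, which lacks these exact letters. RefSeq promoter windows (build GRCm38.p6, 250 bases before to 50 bases after a start) were found for 7 of the 8 genes, all but Thbs1. Each line gives the 100 bases before the start, 5′ to 3′ on the gene's strand. The letters TATATAA, a form of the TATA box, are in capitals.
Cilp, chr9:65265080-65265179, plus strand: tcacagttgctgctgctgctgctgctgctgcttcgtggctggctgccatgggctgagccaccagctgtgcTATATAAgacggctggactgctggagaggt
Postn, chr3:54361007-54361106, plus strand: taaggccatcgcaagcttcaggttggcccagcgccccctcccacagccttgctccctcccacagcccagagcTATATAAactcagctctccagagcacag
Tnc, chr4:64046937-64047036, minus strand: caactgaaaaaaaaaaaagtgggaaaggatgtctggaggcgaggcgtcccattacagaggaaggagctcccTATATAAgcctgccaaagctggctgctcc
Thbs4, chr13:92794819-92794918, minus strand: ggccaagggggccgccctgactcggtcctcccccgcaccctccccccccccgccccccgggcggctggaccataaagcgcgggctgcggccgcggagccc
The letters TATATAA, searched on both strands, lay 30 to 24 bases before the start in Cilp, 28 to 22 in Postn and 29 to 23 in Tnc. They were in 3.24% of all 32851 windows of this length and in 3 of the 7 genes here. Other forms of a TATA box were not searched for, and the Thbs4 window held no TATATAA. It held GGAATG, the core letters bound by TEAD factors, at 197 to 192 and, overlapping it, at 192 to 187 bases before the start, on the strand opposite to the gene. GGAATG was in 14.7% of all windows and in no other of the 7 genes. The letters TGANTCA, of which AP-1 sites are a form, were in 7.81% of windows and in none of the 7 genes. These matches describe letters and show no binding. Postn and Tnc each had a second start in the table, without these letters.

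The 9 libraries were first checked against their labels. Mybpc3 stood at 1510, 1795 and 2039 in the wild-type hearts, at 133, 142 and 186 in the saline mutant hearts and at 1024, 1374 and 1332 in the treated hearts, on the scale of the deposited values. Those values are whole numbers that sum to between 999152 and 999382 in each library, a rounded per-million score whose exact kind is not stated, so sequencing depth is unknown and a value is compared between libraries and not between genes. Genes listed above 0 numbered 14151 to 14934 per library, and mitochondrial genes took 17.0% to 24.1% of the total. The summed level of 8 cardiomyocyte markers was between 37237 and 47413 in every heart, and Myh6, at 14823 to 23965, held much of it. Single markers differed between the saline groups. Tnnt2, Tnni3 and Pln were lower in saline mutants (log2 differences -0.327, -0.499 and -0.406) and Actn2 was higher (0.356), without overlap. The other markers overlapped. Of the 8, limma called 0 there after adjustment, with 4 at an unadjusted p under 0.05. Xist, expressed from the inactive X chromosome, was at 119 in wild-type heart 1, at 351 in saline mutant heart 3 and at 39 in treated heart 1, and at 0 in the other 6. Treated heart 1 also held the Y-linked gene Ddx3y at 38, so it carried RNA of both kinds. Several results below moved when saline mutant heart 3 or treated heart 1 was left out, and their values without that heart are given.

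**Figure D1:**
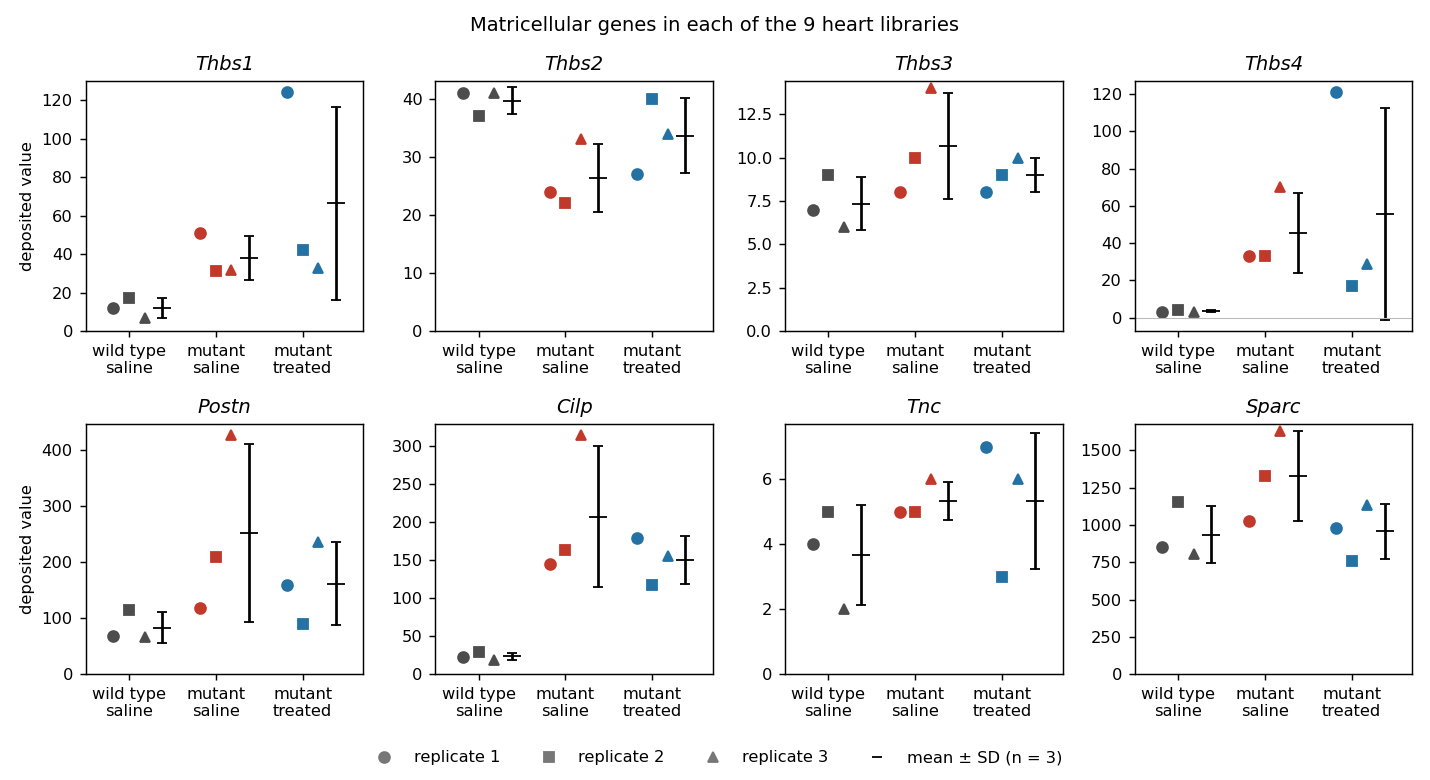
Deposited value (a rounded per-million score, vertical axis, separate linear scale in each panel) of the 8 genes in each library, with the mean and SD of the 3 libraries per group. Thbs4 and Cilp lie apart from wild type in every mutant heart, while treated heart 1 at 124 (Thbs1) and 121 (Thbs4) and saline mutant heart 3 at 428 (Postn) and 314 (Cilp) lead their panels.

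Thrombospondin 1 rose in the saline mutant hearts and was no lower on average in the treated ones. Thbs1 (chr2:118111876-118127133, plus strand) was at 12, 17 and 7 in the wild-type hearts, at 51, 31 and 32 in the saline mutant hearts and at 124, 42 and 33 in the treated hearts. Every mutant heart, treated or not, lay above every wild-type heart, and treated heart 1 stood far above the rest. The means were 12 ± 5.0, 38 ± 11.3 and 66.3 ± 50.1 (SD, n = 3 each). Saline mutants were above wild type by 1.62 ± 0.298 (SE) on the log2(value + 1) scale, a scale that understates the change of low genes (limma, adjusted p = 0.0122). Treated hearts differed from saline mutants by 0.58 ± 0.437 (adjusted p = 0.76) and from wild type by 2.20 ± 0.498 (adjusted p = 0.118), neither past the threshold of 0.05. Without treated heart 1 these differences were 0.01 and 1.63 (adjusted p = 1.0 and 0.128). The rise in saline mutants was not called without wild-type heart 1 (adjusted p = 0.061) or without the 3 hearts with Xist (difference 1.76, adjusted p = 0.0698), while the difference itself was as large.

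Thrombospondin 2, which like thrombospondin 1 restrains vessel growth, was the one gene of the group whose value was lower in the mutant. Thbs2 (chr17:14665500-14694235, minus strand) was at 41, 37 and 41 in wild type, at 24, 22 and 33 in saline mutants and at 27, 40 and 34 in treated hearts. The saline groups did not overlap, and the treated hearts spread from the mutant range to the wild-type range. The difference between saline mutants and wild type was -0.59 ± 0.157 (limma, adjusted p = 0.0575), just outside the threshold. It was -0.76 without saline mutant heart 3 (adjusted p = 0.0121) and -0.48 without saline mutant heart 2 (adjusted p = 0.221). No other single heart left out gave a call. The treated hearts differed by 0.35 ± 0.192 from saline mutants (adjusted p = 0.683) and by -0.25 ± 0.151 from wild type (adjusted p = 0.561). Without treated heart 1 these were 0.49 and -0.10, and without treated heart 2 they were 0.22 and -0.38 (adjusted p = 0.685, 0.825, 0.992 and 0.497).

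Thrombospondin 3, which assembles as a pentamer as thrombospondin 4 does, was low throughout and its groups overlapped. Thbs3 (chr3:89215180-89226837, plus strand) was at 7, 9 and 6 in wild type, at 8, 10 and 14 in saline mutants and at 8, 9 and 10 in treated hearts. No comparison passed the threshold: the differences were 0.47 ± 0.221 for saline mutants against wild type, -0.19 ± 0.206 for treated against saline mutants and 0.27 ± 0.168 for treated against wild type (limma, adjusted p = 0.284, 0.851 and 0.561). Leaving out saline mutant heart 3 gave 0.27 for the first and 0.002 for the second (adjusted p = 0.584 and 1.0).

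Thrombospondin 4, a gene known for its rise in overloaded hearts, stood at a few units in wild type and far higher in every mutant heart. Thbs4 (chr13:92751590-92794818, minus strand) was at 3, 4 and 3 in wild type, at 33, 33 and 70 in saline mutants and at 121, 17 and 29 in treated hearts. All 6 mutant hearts lay above all wild-type hearts, and the treated group held both the highest and the lowest value among the mutants. The means were 3.33 ± 0.577, 45.3 ± 21.4 and 55.7 ± 56.9 (SD, n = 3 each), so saline mutants stood at 13.6 and treated hearts at 16.7 times the wild-type mean. On the log2(value + 1) scale the differences were 3.33 ± 0.279, -0.11 ± 0.624 (treated against saline mutants) and 3.23 ± 0.616 (SE). Without treated heart 1 the treated hearts were 2.43 ± 0.244 above wild type and -0.90 ± 0.361 from the saline mutants. Without saline mutant heart 3 the saline mutants were 2.98 ± 0.161 above wild type, and the treated hearts then differed from them by 0.25 ± 0.712, with the sign turned. It was also above 0 without treated heart 2 (0.48) or treated heart 3 (0.11). In the authors' deposited table the log2 fold change of treated against saline mutants was 0.40 (SE 0.881), of the opposite sign to the value here.

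**Figure D2:**
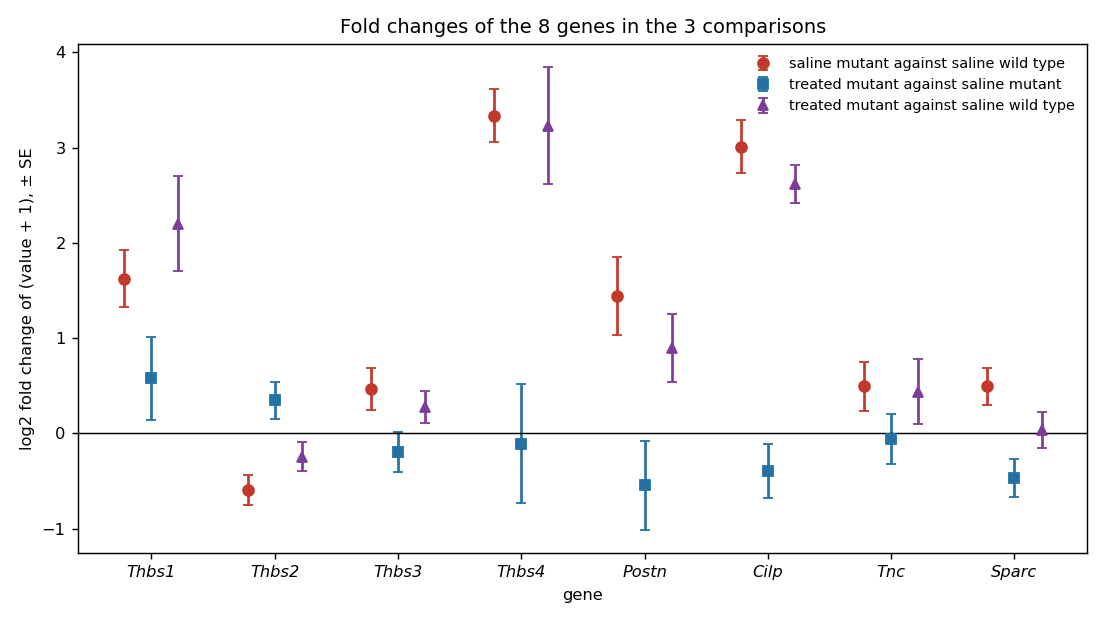
Log2 fold change of (value + 1) with its standard error for each gene in the 3 comparisons (3 libraries per group); the horizontal line marks no difference. Thbs4 (3.33 and 3.23) and Cilp (3.01 and 2.62) have the highest values against wild type in both mutant groups, and all treated against saline mutant values lie between -0.54 and 0.58.

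Periostin, a protein of activated fibroblasts that organises collagen, varied widely among the mutant hearts. Postn (chr3:54361109-54391037, plus strand) was at 68, 115 and 66 in wild type, at 119, 209 and 428 in saline mutants and at 160, 90 and 237 in treated hearts. The saline groups came close but did not overlap, and treated heart 2 lay within the wild-type range. The means were 83.0 ± 27.7, 252 ± 159 and 162 ± 73.5 (SD, n = 3 each). The differences were 1.44 ± 0.411 for saline mutants against wild type, -0.54 ± 0.466 for treated against saline mutants and 0.90 ± 0.358 for treated against wild type (limma, adjusted p = 0.0751, 0.803 and 0.36). Without saline mutant heart 3 the first was 0.97 (adjusted p = 0.147), and without saline mutant heart 1 it was 1.89 and passed the threshold (adjusted p = 0.00896). The difference between the mutant groups was -0.07 without saline mutant heart 3, -0.18 without treated heart 2, -0.99 without saline mutant heart 1 and -0.87 without treated heart 3 (adjusted p = 1.0, 1.0, 0.495 and 0.598). Treated hearts were 0.58 above wild type without treated heart 3 (adjusted p = 0.54).

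Cilp is a matrix protein that binds TGF-beta and is made in the heart by fibroblasts. Among the genes whose treated hearts all lay above wild type, its treated values varied least relative to their mean. Cilp (chr9:65265180-65280605, plus strand) was at 23, 29 and 19 in wild type, at 145, 163 and 314 in saline mutants and at 179, 117 and 155 in treated hearts. The lowest mutant heart lay far above the highest wild-type heart, and the treated hearts overlapped the lower part of the saline mutant range. The means were 23.7 ± 5.03, 207 ± 92.8 and 150 ± 31.3 (SD, n = 3 each), or 8.76 and 6.35 times wild type in the saline and treated mutants. The differences were 3.01 ± 0.277 and 2.62 ± 0.199 against wild type, and -0.40 ± 0.281 between the mutant groups (log2 scale, SE). Without treated heart 1 the treated difference from wild type was 2.48 ± 0.203. Without saline mutant heart 3 the saline difference was 2.67 ± 0.177 and that between the mutant groups was -0.05 ± 0.185.

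Tenascin C, which marks tissue under repair, stayed near the lower limit of the values. Tnc (chr4:63959785-64047015, minus strand) was at 4, 5 and 2 in wild type, at 5, 5 and 6 in saline mutants and at 7, 3 and 6 in treated hearts. All groups met or overlapped, and the differences of 0.50 ± 0.259, -0.06 ± 0.263 and 0.44 ± 0.338 (saline mutants against wild type, treated against saline mutants, treated against wild type) did not pass the threshold (limma, adjusted p = 0.341, 0.997 and 0.658). Between the mutant groups the difference was -0.25 without treated heart 1 and 0.02 without saline mutant heart 3, and treated hearts were 0.24 above wild type without treated heart 1 (adjusted p = 0.889, 1.0 and 0.847).

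Sparc, a collagen-binding protein that is abundant in connective tissue, overlapped between all groups. Sparc (chr11:55394500-55423183, minus strand) was at 853, 1154 and 804 in wild type, at 1026, 1330 and 1631 in saline mutants and at 981, 762 and 1132 in treated hearts. The group means were 937 ± 190, 1329 ± 303 and 958 ± 186 (SD, n = 3 each), so the treated mean lay close to the wild-type mean. The differences were 0.50 ± 0.194 for saline mutants against wild type, -0.46 ± 0.199 for treated against saline mutants and 0.03 ± 0.188 for treated against wild type (limma, adjusted p = 0.194, 0.588 and 1.0). The first of these was 0.34 and the second -0.30 when saline mutant heart 3 was left out (adjusted p = 0.452 and 0.877).

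Across the 6 tested genes, 1 (Thbs1) was called in saline mutants against wild type, where 7.71% of all 13632 tested genes were called, 4.56% higher and 3.15% lower. With upper-quartile scaling the share of called genes that were higher was 47.6%, against 59.2% as deposited. None of the 6 was called in treated against saline mutants, where 4 of 13636 genes (0.0293%) were, nor in treated mutants against wild type, where 134 of 13554 (0.989%) were, 0.863% higher and 0.125% lower. In the last comparison the share called higher was 87.3% as deposited and 71.6% with upper-quartile scaling. At an unadjusted p under 0.05, limma gave 4, 1 and 2 of the 6 genes, beside 2706 of 13632, 1130 of 13636 and 1697 of 13554 genes. These all-gene counts are also the background for the unadjusted counts of the gene lists below. Groups did not overlap for 3, 0 and 1 of the 6 genes in these comparisons, against 21.6%, 9.82% and 14.6% of all genes. The median difference of the 6 was 0.50, -0.13 and 0.36, and that of all genes 0.07, -0.03 and 0.01. In the authors' deposited lists of selected genes, Thbs1, Thbs2, Thbs4, Postn and Cilp appeared for saline mutants against wild type, Thbs1 for treated against saline mutants, and Thbs1, Thbs4, Postn and Cilp for treated mutants against wild type. These lists held 4.42%, 0.879% and 2.06% of the genes in the respective full tables. The authors' p-values named as adjusted were unadjusted, so their lists and the calls here do not share a threshold. Nor did p alone set their lists. For saline mutants against wild type Thbs2 was listed (log2 fold change -0.674, SE 0.317). Sparc (0.424, SE 0.163), with a larger change relative to its SE, was not. The lists also take in Thbs4 and Cilp, which were chosen on these values.

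The 2 mutant groups share the wild-type hearts as a reference, so each treated heart was placed between the saline groups as a description, with 0 at the wild-type mean and 1 at the saline mutant mean of log2(value + 1). This was done for the 5 genes whose saline groups did not overlap. Cilp was at 0.959, 0.757 and 0.890 in the treated hearts, the narrowest range of the 5 on this scale. The scale divides by the difference between the saline groups, so a large difference, as for Cilp, narrows the range. Cilp was also chosen because it stayed above wild type after treatment. Thbs4 was at 1.45, 0.619 and 0.840, and Thbs1 at 2.06, 1.11 and 0.901, with treated heart 1 beyond the mutant mean for both. Postn was at 0.683, 0.113 and 1.07, and Thbs2 at 0.906, -0.0226 and 0.363, so for both genes treated heart 2 lay nearest wild type. The means were 0.869 ± 0.103 for Cilp, 0.968 ± 0.429 for Thbs4, 1.36 ± 0.616 for Thbs1, 0.623 ± 0.483 for Postn and 0.415 ± 0.466 for Thbs2 (SD, n = 3). Without treated heart 1 the mean was 0.729 for Thbs4, 1.01 for Thbs1 and 0.17 for Thbs2. The Thbs2 mean was 0.634 without treated heart 2. The Postn mean was 0.932 without saline mutant heart 3 and 0.398 without treated heart 3, so its place between the groups rested on single hearts. Over all hearts left out in turn the Cilp mean stayed between 0.811 and 0.98.

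**Figure D3:**
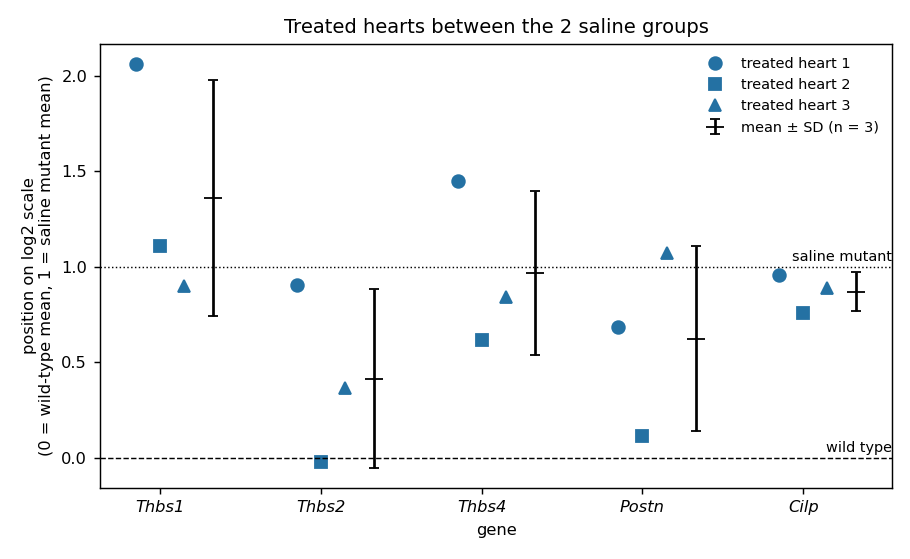
Position of each treated heart between the wild-type mean (0, dashed) and the saline mutant mean (1, dotted) on the log2(value + 1) scale, with the mean and SD of the 3 hearts. Cilp lies between 0.757 and 0.959 in all 3 hearts, while treated heart 1 exceeds 1 for Thbs1 (2.06) and Thbs4 (1.45).

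Treated heart 1 led the other 8 libraries for a small set of genes that included both Thbs1 and Thbs4. Its value was 2.43 times that of the next highest library for Thbs1 and 1.73 times for Thbs4. At least 1.5 times every other library was reached there by 22 of the 8786 genes with a mean of at least 10. The other 20 included the ER proteins Creld2 (1.93 times), Pdia4 (1.87) and Manf (1.74), the collagen-processing genes Serpinh1 (1.82) and P4ha1 (1.86), and the heat-shock genes Hsph1 (1.83) and Dnajb1 (1.62); these were picked after their values were seen. Of the 17 genes on a list of Atf6 and its ER chaperones and related genes, 11 (64.7%) were highest in treated heart 1, against 6.53% of all 13530 genes. This is a description of 1 library, the one that held both Xist and Ddx3y. The list was chosen with earlier results known, and its genes may move together. Some led by little, as Hsp90b1 did at 287 against 257 in saline mutant heart 3.

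The list holds the pathway that thrombospondin 4 is tied to, and the group comparisons called 1 of its genes. Atf6 rose in saline mutants from 98, 141 and 143 to 193, 189 and 191 (difference 0.60 ± 0.147, limma, adjusted p = 0.0421), with no overlap between the groups. No gene of the list was called without saline mutant heart 3, while Atf6 was called without the 3 hearts with Xist. Treated hearts had Atf6 at 155, 263 and 177, and heart 1, the highest for Thbs4, was the lowest of these. Hspa5, the main ER chaperone and a target of Atf6, was at 580, 549 and 477 in wild type, at 525, 477 and 456 in saline mutants and at 817, 525 and 495 in treated hearts. A saline mutant heart lay below the wild-type range and treated heart 1 lay above it. The list's median difference was -0.03 in saline mutants against wild type, 0.27 in treated against saline mutants and 0.21 in treated against wild type, with 0 genes called by limma in each of the last pair of comparisons and 1 in each at an unadjusted p under 0.05.

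**Figure D4:**
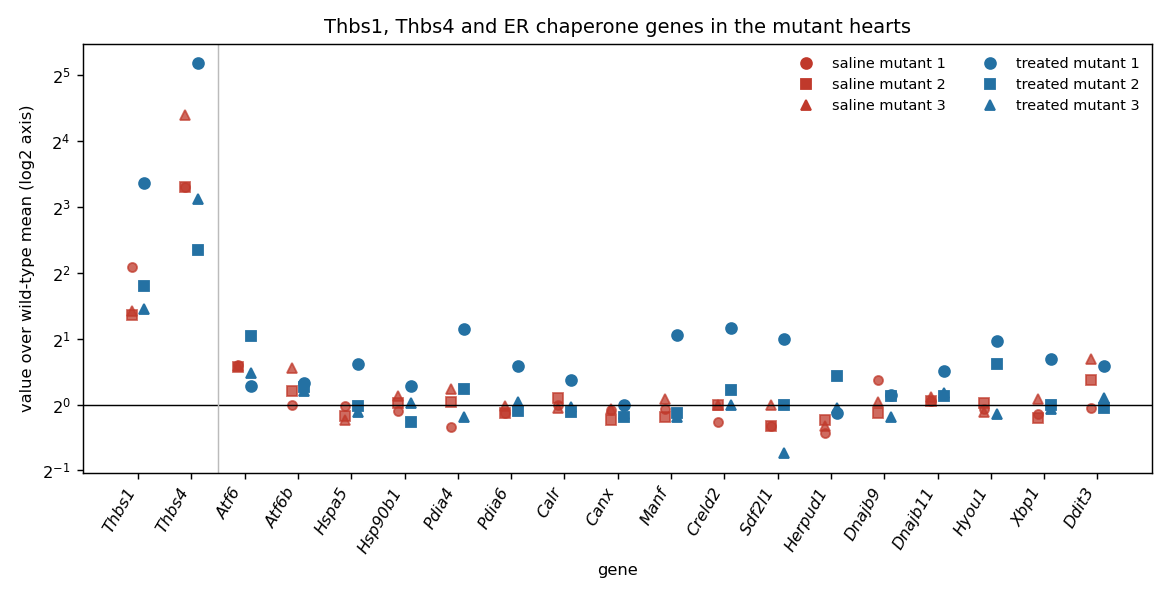
Value of Thbs1, Thbs4 and the 17 Atf6 and ER genes in each mutant heart over the wild-type mean (log2 axis, the line at 1 is wild type). Thbs4 is 5.1 to 36.3 times wild type in all mutant hearts, and Hspa5 is at 0.852 to 0.981 in the saline mutants and at 1.53 in treated heart 1.

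Saline mutant heart 3 was the highest library for 4 of the 8 genes (Thbs3, Postn, Cilp and Sparc), or 50%, and for 32.1% of all genes. It also had the highest sum of 8 fibroblast markers, 4003, where the other hearts had 2790 to 3764, and of 8 macrophage markers, 871 against 425 to 664. In tissue samples of this kind, more cells of a type and more RNA per cell cannot be told apart. By group, the fibroblast sums were 2790 to 3764 in wild type, 3004 to 4003 in saline mutants and 3176 to 3323 in treated hearts, and limma called 0 of the 8 markers in any comparison. At an unadjusted p under 0.05 there were 5, 3 and 1 of the 8 (saline mutants against wild type, treated against saline mutants, treated against wild type), with median differences of 0.45, -0.28 and 0.07. Among all tested genes the counts were 2706 of 13632, 1130 of 13636 and 1697 of 13554. Gsn, also made by other cells, held much of that sum, at 1741 to 2301 in wild type, 1498 to 1613 in saline mutants and 1752 to 2025 in treated hearts. The other 7 markers summed to 1049 to 1463, 1477 to 2390 and 1151 to 1433. Without Gsn every saline mutant heart thus lay above every wild-type heart, by a narrow margin (1477 against 1463). Leaving out Gsn was not planned beforehand. In saline mutants against wild type 6 of the 8 markers were higher, and Gsn (-0.338) and Dpt (-0.185) were lower. The part of this in Postn, Cilp and the other genes was not tested.

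Markers of tendon, cartilage and valve, tissues where Thbs4 and Cilp are also made, were near 0 in part. The 6 of 8 such markers in the tables summed to 5 to 7 in wild type, 22 to 43 in saline mutants and 14 to 52 in treated hearts. The rise came mostly from Fmod (fibromodulin, a collagen-binding proteoglycan), at 1, 1 and 0, then 11, 14 and 25, then 27, 5 and 6 (saline mutants against wild type, limma, adjusted p = 0.000904), while Tnmd, Chad and Cilp2 were at 2 or less in every heart. Whether valve or tendon tissue in the pieces had a part in Thbs4 was not tested. Endothelial sums (836 to 1257 over all hearts), platelet sums (8 to 16) and mesothelial sums (2 to 10) had no marker called by limma in any comparison. Sums of 5 red blood cell markers were 104 to 313 in wild type, 69 to 85 in saline mutants and 140 to 158 in treated hearts, with all 5 markers lower in saline mutants than in either other group without overlap. Of these, Hba-a2 and Alas2 fell in saline mutants against wild type (limma, adjusted p = 0.0411 and 0.0359), and 0 of 5 were called in the other comparisons, with 5 and 0 at an unadjusted p under 0.05. The part of red cell RNA in the results was not tested.

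Other matricellular genes were taken from a list of 27, of which 23 were in the tables. In saline mutants against wild type, 4 of 21 tested rose and 1 fell, with a median difference of 0.67. Ccn2, a connective tissue growth factor, was at 47, 52 and 59 in wild type, at 176, 171 and 271 in saline mutants and at 364, 178 and 175 in treated hearts. The mutant groups lay wholly above wild type, by 1.92 ± 0.181 untreated and 2.08 ± 0.275 treated (limma, adjusted p = 0.000575 and 0.026), and like Thbs1 and Thbs4 it was highest in treated heart 1. Ccn5, a family member without the C-terminal domain, rose by 1.69 in saline mutants from 4, 7 and 8 to 12, 29 and 30 (adjusted p = 0.0216), and treated hearts were at 8, 9 and 15. Spp1 (osteopontin) rose by 1.39 and Ccn1 by 0.83 (adjusted p = 0.0306 and 0.0135), Spp1 at values of 3 or less in the saline hearts and 4, 0 and 2 in the treated ones. Ccn1 was at 33, 33 and 38 in wild type, at 49, 68 and 72 in saline mutants and at 106, 126 and 49 in treated hearts. Treated hearts lay above wild type for Ccn1 without overlap, but it was not called (1.305 ± 0.317, limma, adjusted p = 0.145). Ccn3 fell by 0.85, from 6, 5 and 4 to 2, 2 and 3 (adjusted p = 0.0421). Without saline mutant heart 3 the called genes were Ccn1, Ccn2 and Ccn3, and without the 3 hearts with Xist, Ccn2 alone. In treated against saline mutants limma called 0 of 21, with 4 at an unadjusted p under 0.05 (median -0.20), and in treated mutants against wild type Ccn2 was called of 20 tested (median 0.25), also without treated heart 1.

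**Figure D5:**
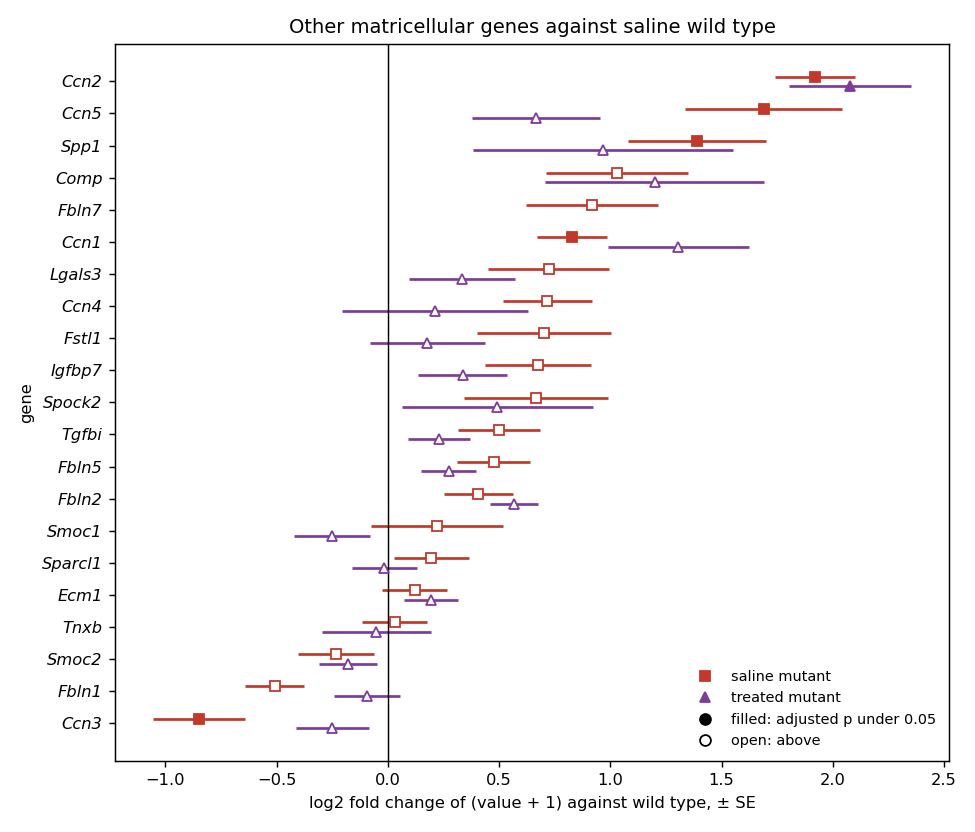
Log2 fold change against saline wild type with its standard error for the other matricellular genes, saline mutants as squares and treated mutants as triangles, filled where the adjusted p is under 0.05. Ccn2 is filled in both groups (1.92 and 2.08), and Ccn1, Ccn3, Ccn5 and Spp1 in saline mutants.

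Receptors and binding partners of these proteins were taken from a list of 19, all tested. In saline mutants against wild type 3 rose and 0 fell, with a median difference of 0.30. Itga5, the fibronectin receptor subunit, was at 63, 80 and 60 in wild type, at 134, 115 and 127 in saline mutants and at 147, 137 and 108 in treated hearts, with both mutant groups apart from wild type (0.89 and 0.94, limma, adjusted p = 0.00421 and 0.0487). Tlr4, an innate immune receptor that tenascin C can activate, was at 13, 18 and 14, then 40, 29 and 45, then 35, 40 and 30, and differed from wild type by 1.27 and 1.17 (adjusted p = 0.00421 and 0.0268). Itga9, a tenascin C receptor subunit, rose by 0.82 in saline mutants (adjusted p = 0.032), a call lost without saline mutant heart 3 and without the 3 hearts with Xist. The thrombospondin receptors Cd36 and Cd47 were not called: Cd36 was at 1984, 1660 and 2002 in wild type and 1646, 1580 and 1836 in saline mutants, and Cd47 at 90, 89 and 83 and 64, 70 and 86. In treated against saline mutants limma called 0 of 19, with 2 at an unadjusted p under 0.05 (median -0.10). The 2 calls in treated mutants against wild type (median 0.14) were lost without treated heart 1.

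Genes of activated fibroblasts, the cells that make Postn and Cilp, came from a list of 19 with 17 tested. In saline mutants against wild type 7 rose and 1 fell, with a median difference of 0.60. Without saline mutant heart 3 there were 5 calls, of Col8a1, Lox, Timp1 and Tgfb2 higher and Acta2 lower, and without the 3 hearts with Xist 4. Col8a1, a short-chain collagen, was at 48, 66 and 49 in wild type, at 134, 180 and 360 in saline mutants and at 88, 70 and 186 in treated hearts (1.92, limma, adjusted p = 0.00752). Lox, which crosslinks collagen, was at 6, 7 and 7, then 18, 19 and 42, then 24, 15 and 20. Every mutant heart exceeded wild type for Lox, by 1.73 on average untreated and 1.41 treated (adjusted p = 0.00799 and 0.026). Timp1 rose by 1.55, Tgfb2 by 1.42 and Meox1 by 1.28 in saline mutants (adjusted p = 0.00288, 0.00214 and 0.0224). Acta2, which marks myofibroblasts and smooth muscle, fell instead, from 257, 328 and 189 to 118, 118 and 117 (-1.09 ± 0.177, adjusted p = 0.00716), and was at 186, 170 and 161 in treated hearts. It is also on the smooth muscle and pericyte list, whose sums were 1231 to 1514 in wild type, 985 to 1244 in saline mutants and 1022 to 1197 in treated hearts. In treated against saline mutants limma called 0 of 17, with 5 at an unadjusted p under 0.05 (median -0.33). In treated mutants against wild type Lox was called (median 0.32), and that call was lost without treated heart 1 and without the 3 hearts with Xist.

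The genes most like Thbs4, Cilp and Postn over the 9 libraries were found by the root-mean-square difference between gene-centred log2 profiles, among 8780 genes, as a description. Genes picked in this way share the pattern by choice, so their place against wild type is no separate result. Nearest to Thbs4 were Fmod (0.384), Ltbp2 (0.528), Tnfrsf12a (0.694), Tpm2 (0.719) and Ccn2 (0.756). Ltbp2, a latent TGF-beta binding protein, was at 2, 4 and 5 in wild type, at 21, 37 and 54 in saline mutants and at 54, 25 and 30 in treated hearts, with all mutant hearts above wild type. Nearest to Cilp were Ltbp2 (0.410), Tnfrsf12a (0.441), Ankrd1 (0.489), Dct (0.491) and Synpo2l (0.491). Ankrd1, a stretch-responsive cardiomyocyte gene, was at 411, 591 and 663 in wild type, at 1811, 2695 and 3291 in saline mutants and at 2897, 1727 and 1594 in treated hearts. Nearest to Postn were Mfap4 (0.288), Col8a1 (0.290), Enpp1 (0.297), Eln (0.304) and Adcy7 (0.312). Eln, which encodes elastin, was at 73, 93 and 66, then 166, 244 and 308, then 134, 109 and 191, with the treated hearts between the other groups on average. Among the 8 genes themselves Thbs3 and Sparc were closest (0.184), Thbs4 and Cilp were 0.606 apart, and Thbs2 and Thbs4 were farthest apart (1.94). This measure is small for any pair of genes that change little, as Thbs3 and Sparc did, and large where 1 of them changes much.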

How the data were processed

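PolyA RNA from 9 heart samples was sequenced. The submitters' processing notes name HISAT2, HTSeq, DESeq2 and mm10, without versions or roles. The authors deposited, for each pair of groups, whole-number values per gene and library, treated here as a score, with a mean signal, a log2 fold change, its standard error, a statistic and p-values; the deposited column named as adjusted p-value equals the unadjusted normal p of the statistic. Symbols were matched to GENCODE M21 (GRCm38).

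Each pair of groups was fitted with limma 3.58.1 (R 4.3.3) on log2(value + 1), for genes with a mean of at least 1. Residual variances were floored at the rounding variance (1/12), the prior degrees of freedom came from genes with a mean of at least 30, and p-values were adjusted over all genes (Benjamini-Hochberg, threshold 0.05). The fit was tested on simulated data. The members, lists and tests were chosen with earlier results of these data known. Named were Mybpc3, Xist, Ddx3y, the 8 genes, up to 6 called genes per list by size of difference, and the 5 genes most like Thbs4, Cilp and Postn (mean of at least 10); other names were picked after their values were seen. Alternatives covered pseudocount, filter, scaling, variance step, joint fit, replicate block and left-out libraries. An item of a gene list is not reported here.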

Additional observations from a re-analysis of the deposited data

How the results depend on the processing

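The number of genes called depended on the settings. For saline mutants against wild type, 1051 genes were called, 580 without the 3 hearts with Xist, and 528 to 1037 when 1 heart was left out. For treated against saline mutants, 4 were called: 2 with no filter and without the hearts with Xist, 7 with a pseudocount of 5, 10 with either other scaling, 13 with all groups in 1 fit, 14 with the prior from all genes, 32 with limma's trend without the floor, 35 with the replicate block and 2 to 8 with 1 heart left out; the split was 2 of 4 higher as deposited and 8 of 10 with either scaling. For treated mutants against wild type, 134 were called: 239 with 1 fit, 243 with the prior from all genes, 77 with the trend, 35 with the block, 9 without the hearts with Xist and 1 to 139 with 1 heart left out. Of the 6 tested genes, 1 was called in saline mutants against wild type. The count was 0 with 1 fit or with the trend, and 1 without the hearts with Xist (Thbs2 in place of Thbs1). It was 2 with a filter at a mean of 10, which left 4 of the 6 genes to test, and 2 with the replicate block. It was 3 with either scaling or the prior from all genes, and 0 to 2 with 1 heart left out. Thbs1 was called in 13 of 17 alternatives (adjusted p 0.00186 to 0.0734), Thbs2 in 6 (0.00886 to 0.221) and Postn in 5 (0.00896 to 0.266). In treated mutants against wild type Thbs1 was called in 2 of 17, with 1 fit and with the prior from all genes (adjusted p 0.0435 to 0.293). The causes were not tested.

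Of 402 alternatives over single genes, 13 turned the sign of a difference. Thbs1 in treated against saline mutants was -0.093 without the hearts with Xist. Thbs3 there was 0.002 without saline mutant heart 3 and 0.076 without the hearts with Xist, and -0.366 to 0.002 with 1 heart left out. Thbs4 there was -0.903 to 0.477 and Tnc -0.255 to 0.245 with 1 heart left out. Sparc in treated mutants against wild type was -0.049 with upper-quartile scaling, -0.053 without the hearts with Xist and -0.097 to 0.192 with 1 heart left out. With 1 heart left out, the position of the treated hearts was 0.811 to 0.98 for Cilp (the highest without saline mutant heart 3), 0.398 to 0.932 for Postn, 0.17 to 0.634 for Thbs2, 0.729 to 1.14 for Thbs4 and 1.01 to 1.58 for Thbs1. Deviations of same-numbered libraries correlated, over 8786 genes, at -0.2295, -0.1037 and -0.3695 in saline mutants against wild type. The values were -0.06965, 0.1974 and 0.1195 in treated against saline mutants, and 0.566, 0.1503 and 0.02741 in treated mutants against wild type. The largest, 0.566, was between wild-type heart 1 and treated heart 1. The labels do not describe a pairing, and the correlations differed in size and sign, so the block is an alternative only.

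Depth is unknown, and 3 libraries per group limit the precision. Values of a few units, as for Tnc, Thbs3 and wild-type Thbs4, are rounded, so small differences there cannot be resolved.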
